A study of Mus musculus with 6 samples.

Results

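The complement genes followed here were 8 of the 21755 protein-coding genes in the annotation: C1qa, C1qb, C1qc, C3, Cfb, Cfp, C3ar1 and C5ar1. They were chosen by name, and the values are the peaks at each of them of histone H3 acetylated at lysine 27 (H3K27ac), which marks promoters and enhancers in use. A peak was placed at the promoter if it touched the 1 kb on either side of a transcription start site (TSS), otherwise in the gene body if it touched the gene, and otherwise in the flank if it lay within 50 kb of the gene. Chromatin came from alveolar macrophages (AMs), phagocytes that live in the airspace of the lung, sorted by flow cytometry from the lavage of 9-week-old wild-type (WT) C57BL/6J mice, for which no treatment is given. The assay was HT-ChIPmentation, in which the transposase Tn5 inserts sequencing adapters into chromatin already bound to antibody on beads. Of the 6 samples, 1 used an antibody from Active Motif, 2 were replicates with a Cell Signaling antibody, and 3 were inputs that served only as controls in the authors' peak calling. Whether the replicates came from separate mice is not given, so differences between them may be technical, and between the antibodies the run, the sonication and the depth may differ as well and cannot be told apart. No test was made, because each library has 1 peak list without read counts.

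Complement is a cascade of plasma and locally made proteins that tags microbes and dying cells. C1q, built from the products of C1qa, C1qb and C1qc, starts the classical pathway, and all pathways meet at C3, whose cleavage deposits C3b on the target. Factor B (Cfb) and properdin (Cfp) form and stabilise the convertase of the alternative pathway, which amplifies this step. The released peptides C3a and C5a are sensed by the receptors C3ar1 and C5ar1 on myeloid cells, and tissue macrophages in many organs are known as a source of C1q.

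All 8 genes are transcribed from the minus strand of the mm10 assembly. The RefSeq promoter table (GRCm38.p6) matched 6 of them, all but C1qa and Cfb. The 250 bases before the RefSeq start are shown for 5 genes, from one without any peak (C1qb) to the one with the strongest (C5ar1), written 5′ to 3′ along the gene. Capitals mark matches to any of 13 short motifs, searched on both strands.
C1qb (chr4:136886201-136886450): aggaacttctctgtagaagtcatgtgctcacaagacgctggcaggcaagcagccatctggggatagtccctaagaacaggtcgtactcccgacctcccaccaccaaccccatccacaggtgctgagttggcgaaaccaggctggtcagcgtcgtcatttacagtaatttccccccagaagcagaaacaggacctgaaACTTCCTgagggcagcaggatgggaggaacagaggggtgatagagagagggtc
C3 (chr17:57228137-57228386): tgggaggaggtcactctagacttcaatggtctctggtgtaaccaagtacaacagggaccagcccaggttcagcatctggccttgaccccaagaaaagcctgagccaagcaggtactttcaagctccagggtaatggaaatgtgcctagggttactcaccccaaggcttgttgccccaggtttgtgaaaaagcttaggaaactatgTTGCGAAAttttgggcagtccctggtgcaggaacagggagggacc
Cfp (chrX:20931556-20931805): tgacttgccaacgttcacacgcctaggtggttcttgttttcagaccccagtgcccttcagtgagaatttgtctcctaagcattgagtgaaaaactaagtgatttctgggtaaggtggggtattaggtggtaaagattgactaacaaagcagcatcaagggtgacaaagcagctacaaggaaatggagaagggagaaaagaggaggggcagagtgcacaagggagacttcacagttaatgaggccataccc
C3ar1 (chr6:122856158-122856407): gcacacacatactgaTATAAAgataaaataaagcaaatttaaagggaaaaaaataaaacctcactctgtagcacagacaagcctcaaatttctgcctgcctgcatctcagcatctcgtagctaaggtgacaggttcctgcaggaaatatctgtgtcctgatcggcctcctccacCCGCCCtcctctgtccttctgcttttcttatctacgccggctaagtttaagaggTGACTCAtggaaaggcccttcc
C5ar1 (chr7:16259339-16259588): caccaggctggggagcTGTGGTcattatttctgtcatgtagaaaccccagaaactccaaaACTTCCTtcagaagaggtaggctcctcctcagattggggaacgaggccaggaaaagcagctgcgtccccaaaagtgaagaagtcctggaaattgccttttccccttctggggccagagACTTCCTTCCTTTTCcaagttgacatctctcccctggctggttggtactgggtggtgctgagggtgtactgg

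The C3 promoter held a match to the C/EBP motif (TTGCNNAA) 45 to 38 bases before the start, a motif found in 9.62% of 32609 RefSeq promoters of this length. The C5ar1 promoter held 2 matches to the PU.1 motif (AGGAAGT, printed here from the other strand as ACTTCCT), at 190 to 184 and at 72 to 66 bases before the start, and the latter shared its last base with a match to the interferon response motif (GAAANNGAA) at 66 to 58. The PU.1 motif is in 7.72% of promoters and the interferon response motif in 7.17%. A RUNX match (TGTGGT, 14% of promoters) lay 234 to 229 bases before the C5ar1 start. At C5ar1 the RefSeq start lies inside the annotated gene, at the downstream one of its 2 TSS. Both PU.1 matches and the interferon response match therefore lie within the annotated gene, after the upstream TSS, and only the RUNX match lies before it. The PU.1 motif was also present at C1qb, 53 to 47 bases before the start, and at C1qc, 195 to 189 bases before it, where no library had a peak. C1qc held a RUNX match at 132 to 127 and a GC box (GGGCGG) at 24 to 19 as well. At C1qc too the RefSeq start lies inside the annotated gene. The C3ar1 promoter held an AP-1 match (TGANTCA, 6.78%) at 22 to 16, a GC box (GGGCGG, 33%) at 76 to 71 and a TATA box (TATAAA, 12.4%) at 235 to 230, and Cfp held none of the 13. CpG dinucleotides numbered 6 at C1qb, 1 at C3, 2 at Cfp, 5 at C3ar1 and 2 at C5ar1, against a median of 6 over all promoters. These are matches of letters only, and the data hold no measurement of factor binding at them.

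Peaks numbered 36364 with the Active Motif antibody, covering 26.1 Mb at a median width of 341 bp, 56175 in Cell Signaling replicate 1 (45.8 Mb, 267 bp) and 49139 in replicate 2 (59.8 Mb, 629 bp). The median fold enrichment over local background, the ratio given by the authors' caller, was 5.97, 5.38 and 7.19. Fold and q-value were therefore read within a library. Lists of cell type markers were also read, but they were chosen with earlier results of these data known. They are therefore no independent check of the sorting. Of 12 AM marker genes, 11 had a promoter peak with the Active Motif antibody and 12 in each replicate. For interstitial macrophages it was 1, 1 and 2 of 12 genes. Replicate 1 stood apart at epithelial genes: 7 of 8 airway epithelial genes had a promoter peak there, and 1 of 8 in each of the other libraries. Alveolar epithelial genes were marked in 1, 5 and 2 of 10 (Active Motif, replicate 1, replicate 2), and the part of either cell type in the complement peaks was not tested. In the same order, monocyte genes were marked in 2, 3 and 4 of 8, neutrophil genes in 1, 2 and 2 of 8, lymphocyte genes in 0, 1 and 1 of 9 and fibroblast and endothelial genes in 1 of 8 each. Over all protein-coding genes the shares with a promoter peak were 40.9%, 47.9% and 48.9%. The 5 of 10 alveolar epithelial genes in replicate 1 and the 4 of 8 monocyte genes in replicate 2 lie near these shares. Among those 5, however, Sftpd, Nkx2-1, Hopx and Aqp5 had a promoter peak in replicate 1 alone. No library had a promoter peak at any of 5 mast cell genes or of 6 genes of hepatocytes, which make most plasma complement. Since the chromatin is from a bulk population, a mark in fewer cells and a weaker mark in all cells cannot be told apart.

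The 8 genes fell into those with no peak at all (C1qa, C1qb and C1qc), those with a promoter peak in every library (C3, Cfp and C5ar1) and those with one only in the Cell Signaling libraries (Cfb and C3ar1). Promoter peaks were found at 3 members with the Active Motif antibody and at 5 in each Cell Signaling replicate. Over all protein-coding genes the share with a promoter peak was 40.9% with the Active Motif antibody, 47.9% in replicate 1 and 48.9% in replicate 2, and 40.8% had one in all 3 libraries, so 3 and 5 of 8 lie near the background. These counts take the 3 neighbouring C1q genes as separate genes, although they form a single cluster. Cfb and C3ar1, marked in both replicates and not in the Active Motif library, belong to a class that holds 5.69% of all genes. A peak touched the gene body of 5 members in each library, against 42.6%, 52.7% and 53.4% of all genes.

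**Figure D1:**
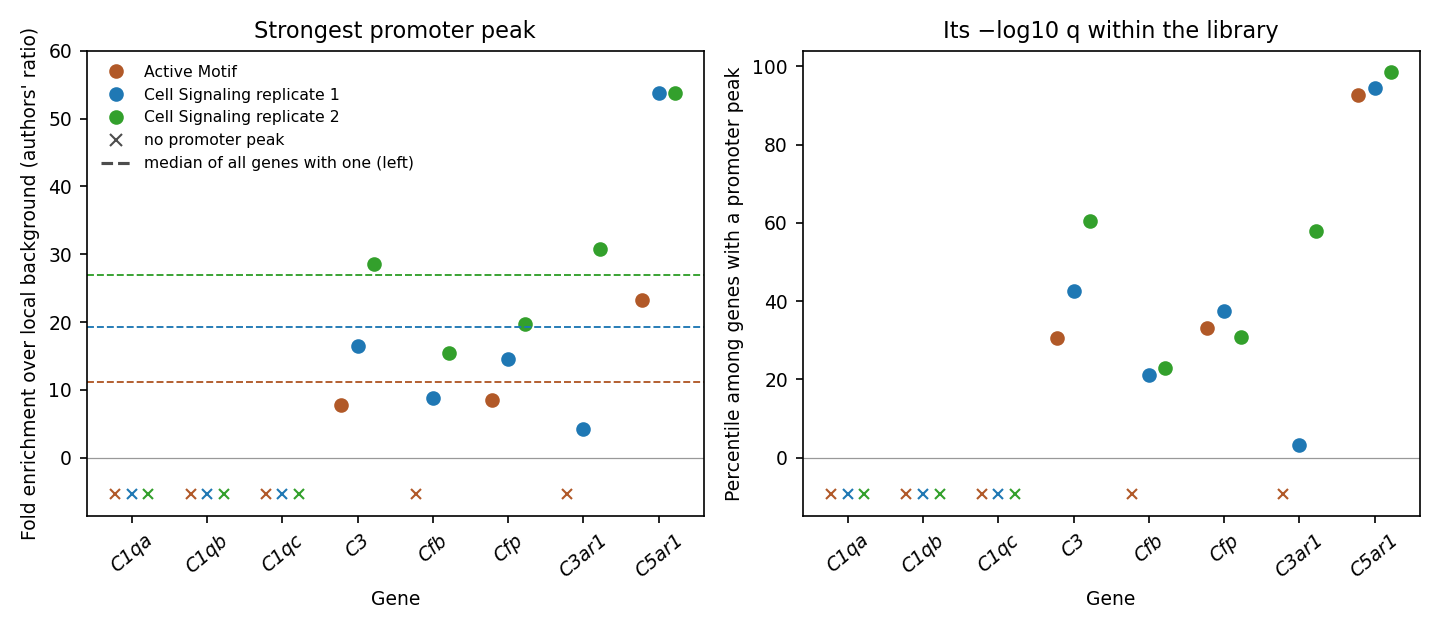
Left, fold enrichment of the strongest promoter peak at each complement gene (vertical axis, the authors' ratio) in the Active Motif library (brown) and Cell Signaling replicates 1 (blue) and 2 (green), with the median over all genes that have a promoter peak as dashed lines and a cross where there was none. Right, the percentile of that peak's −log10 q among all genes with a promoter peak in the library; C5ar1 sits between 92.7 and 98.6, and the C1q genes have crosses throughout.

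The C1q genes had no H3K27ac peak in or near them. C1qa (chr4:136895917-136898803), C1qc (chr4:136889804-136893065) and C1qb (chr4:136880129-136886187) form a cluster of 18.7 kb, and none of the 3 libraries had a peak in any of the 3 genes or within 50 kb of them. Without a promoter peak in any library are 49.8% of all genes, and 22.9% have no peak within 50 kb in any library. The 3 C1q genes are neighbours and count as 1 locus here. The stretch free of peaks in all libraries ran over 246 kb (chr4:136801864-137047909) and also held Epha8, an ephrin receptor gene, and 24.8% of protein-coding genes lie in a stretch without peaks that is at least as long.

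The peaks that bounded this stretch differed between libraries. On the C1qb side the nearest peak of replicate 1 was 78.3 kb away, with a width of 103 bp and a fold of 3.84, and the nearest TSS to it, 34.1 kb off, was that of the ephrin receptor gene Ephb2, whereas that of replicate 2 and of the Active Motif library lay 277 kb away at the promoter of Kdm1a, a histone demethylase gene, with folds of 11.1 and 5.54. On the C1qa side the nearest peak was 149 kb away at the Zbtb40 promoter in both replicates (folds 4.61 and 11.9) and 447 kb away in the Active Motif library. Apart from the narrow peak of replicate 1 and this Active Motif peak, which lay 12 kb from the TSS of Cdc42, the nearest marked sites were promoters of other genes.

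C3, the component on which all pathways converge, had a single promoter peak in each library. It lies at chr17:57203970-57228136. The fold was 7.77 with the Active Motif antibody, 16.5 in replicate 1 and 28.5 in replicate 2, with −log10 q of 12.7, 42.2 and 89.7. Ranked by q among all genes with a promoter peak, C3 stood at percentile 30.7, 42.6 and 60.4, a middle position that was highest in replicate 2. The summits fell 0.48 kb and 0.32 kb before the 5′ end in the Active Motif library and replicate 1, and 0.132 kb into the gene, in an exon, in replicate 2. Peaks covered 1.53%, 1.74% and 3.74% of the gene body, so the 41-exon gene was unmarked beyond its start.

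Upstream of C3 the mark spread further in the Cell Signaling libraries. Replicate 1 had 6 narrow peaks between 1.09 and 3.86 kb before the start with folds of 3.4 to 5.38, replicate 2 had 1 peak of 1435 bp whose summit lay 3.81 kb before it (fold 6.24), and the Active Motif library had none there. Merged over both replicates, the promoter region spanned 3.26 kb, at percentile 86.4 of width among the 29277 regions shared by the replicates. Of the flank peaks of C3, 3 of 7 touched the promoter of another gene in the Active Motif library, 2 of 14 in replicate 1 and 5 of 9 in replicate 2. The strongest flank peak of the Active Motif library (fold 9.72) and of replicate 1 (18.8) lay 19.9 to 20.1 kb upstream at the promoters of Gpr108, which encodes an orphan receptor of the Golgi, and Trip10, which encodes an adaptor of the actin cytoskeleton, and in replicate 2 this site had a fold of 30. The strongest in replicate 2 (33.7) lay at the promoter of Vav1, which encodes a signalling protein of blood cells, with its summit 51.3 kb upstream. A site 3.82 kb from the Vav1 TSS in replicate 1 was marked in all libraries, with folds of 7.13, 12.7 and 31.1.

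The strongest peak at C3 in replicate 1 is shown as the 200 bases around its summit (chr17:57228356-57228555), because it carried a further C/EBP match in capitals, on the reverse strand of the gene. This motif is in 9.52% of 56173 such windows over all peaks of the library.
C3 summit: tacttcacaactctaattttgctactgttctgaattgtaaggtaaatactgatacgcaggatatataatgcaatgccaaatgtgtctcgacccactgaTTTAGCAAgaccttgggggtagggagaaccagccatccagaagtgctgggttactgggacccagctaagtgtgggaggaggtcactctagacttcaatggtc

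Of the alternative pathway genes, properdin was marked in every library and factor B at its promoter only with the Cell Signaling antibody. Cfp (chrX:20925454-20931555) had promoter folds of 8.52 with the Active Motif antibody, 14.6 in replicate 1 and 19.7 in replicate 2, all below the median of marked genes in the same library (11.1, 19.2 and 26.9). Its percentile by q was 33.1, 37.4 and 30.8. The Active Motif library broke the site into 3 promoter peaks and 1 body peak of 216 to 397 bp, replicate 1 into peaks of 2030, 362 and 80 bp, and replicate 2 had a single peak of 2986 bp that covered 33.8% of the gene. The strongest summits lay 0.218, 0.085 and 0.191 kb before the 5′ end.

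Every flank peak of Cfp touched the promoter of another gene. The strongest in each library lay 30.3 to 30.4 kb upstream at Uxt, which encodes a prefoldin-like protein, with folds of 19.2, 43.4 and 39.4, higher than at Cfp itself in the same library. Weaker ones lay at Elk1, an ETS factor gene (5.12, 13.8 and 17.3), and at Syn1, a synaptic vesicle gene, which had a peak in replicates 1 (4.61) and 2 (6.71) only.

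Cfb (chr17:34856374-34862518, 3 TSS) had no promoter peak in the Active Motif library, a fold of 8.84 in replicate 1 and of 15.5 in replicate 2, with −log10 q of 16.2 and 35.7. These were low among marked genes, at percentile 21.1 and 22.8. A peak inside the gene, 3.96 to 3.99 kb from the 5′ end, was present in all 3 libraries, with folds of 3.19, 11.5 and 11.4. In replicate 1 this inner peak was stronger than the promoter peaks, whereas in replicate 2 the promoter peak was stronger. Its summit fell in an exon in every library. Peaks covered 3.21%, 27.4% and 38.3% of the gene. Cfb also lies within the annotated readthrough gene Gm20547, so a peak over its body cannot be assigned to Cfb alone. The 200 bases around the inner summit of replicate 1 (chr17:34858432-34858631) held none of the 13 motifs.
Cfb summit: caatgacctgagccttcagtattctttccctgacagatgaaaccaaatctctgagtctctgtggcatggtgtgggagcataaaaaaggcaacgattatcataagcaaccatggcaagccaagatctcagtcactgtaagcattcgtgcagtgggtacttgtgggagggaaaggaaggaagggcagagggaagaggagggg

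The flanks of Cfb lie in the gene-dense class III region of the major histocompatibility complex. The strongest flank peak in each library was at the shared promoter of Stk19 and Dxo, a nuclear protein gene and an RNA decapping gene, with folds of 18.7, 35.4 and 33.2, above the promoter of Cfb in each library that had one. C2, the neighbouring gene whose product takes the place of factor B in the classical pathway, had a promoter peak in replicate 1 (9.23) and replicate 2 (12.1), which also touched the promoter of Zbtb12. Further flank peaks lay at Nelfe and Skiv2l and at Ehmt2, all marked in the 3 libraries.

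**Figure D2:**
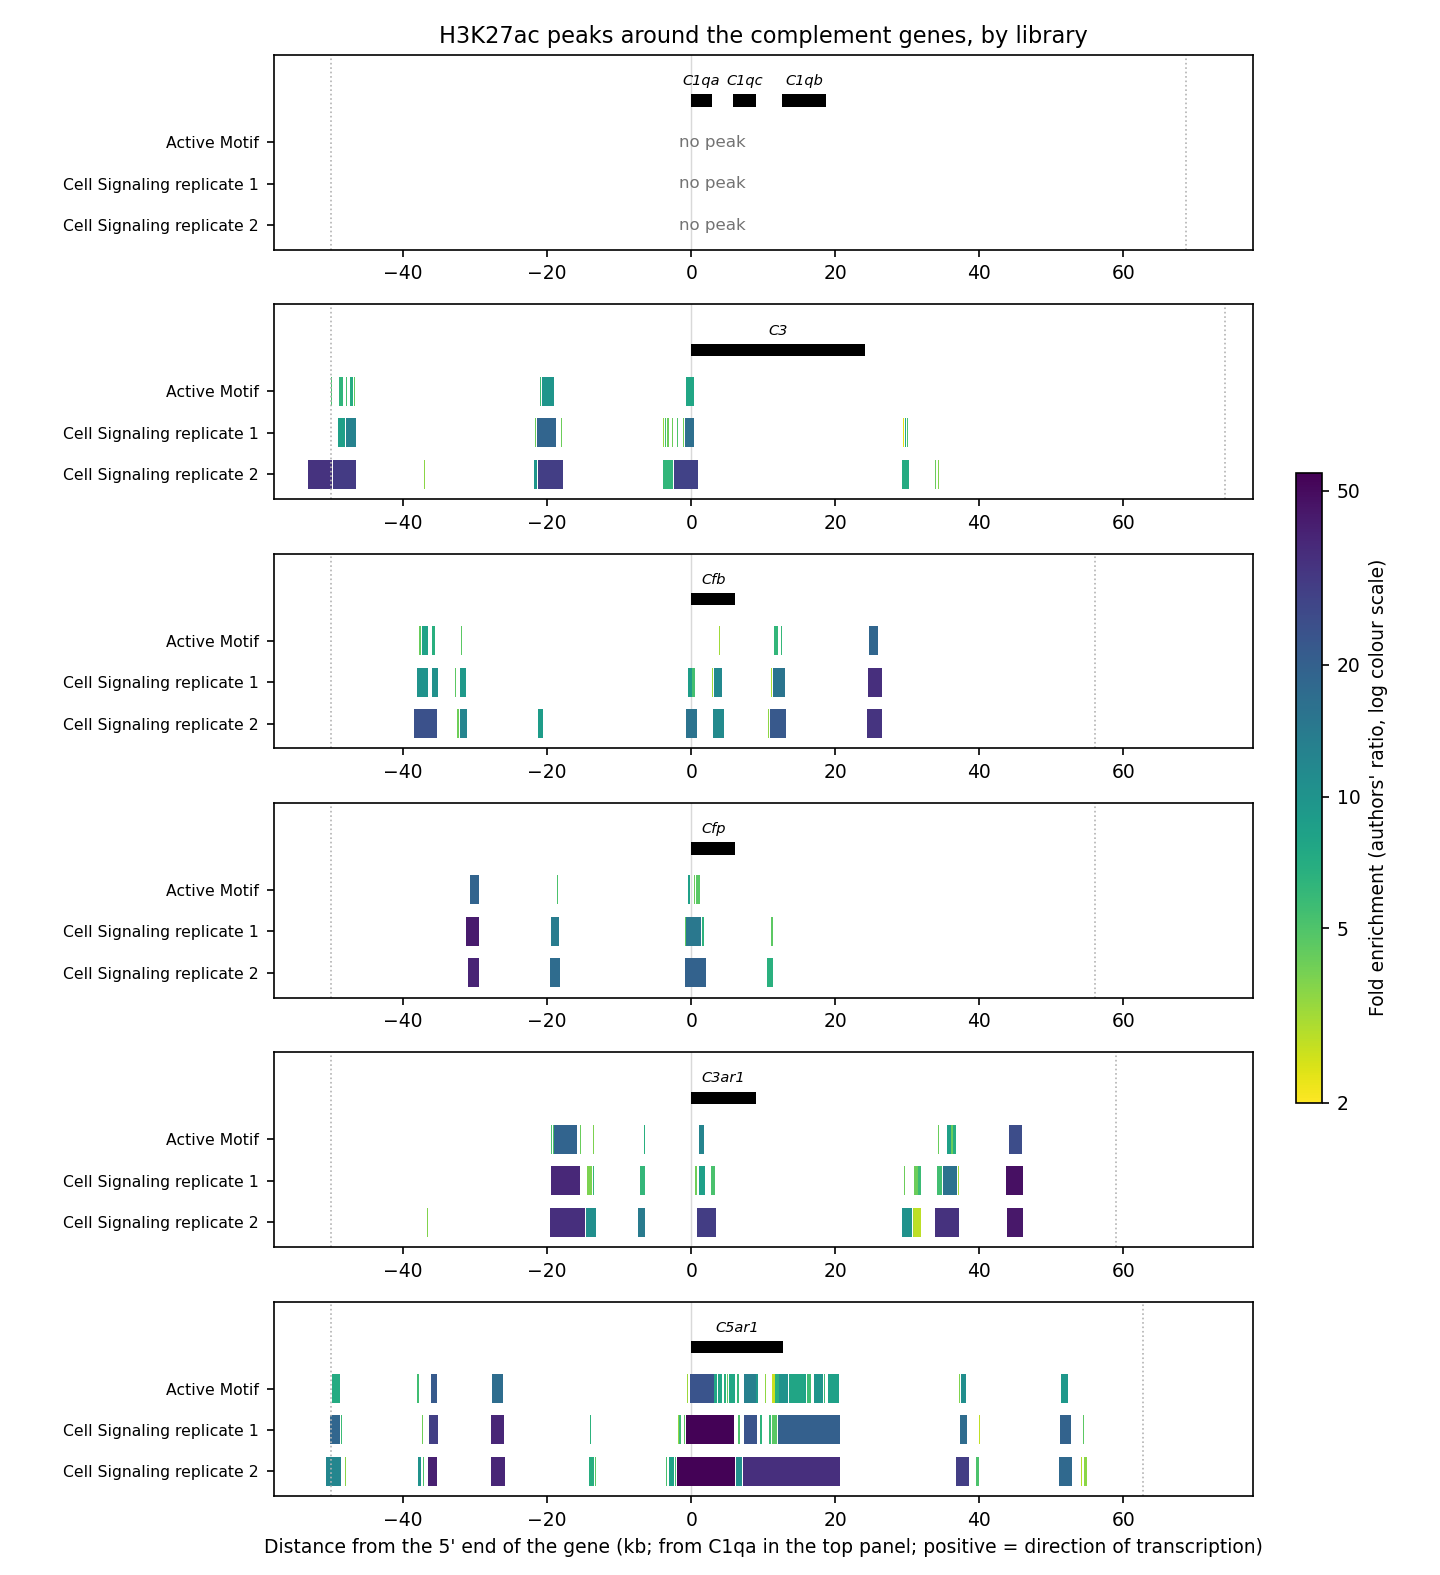
H3K27ac peaks in each library (rows) within the gene and 50 kb on either side (dotted lines) for the C1q cluster, C3, Cfb, Cfp, C3ar1 and C5ar1, by distance from the 5′ end of the gene in kb (horizontal axis, positive in the direction of transcription); black bars are the genes, colour is the authors' fold on a log scale, and the narrowest peaks are widened to stay visible. The C1q window is empty in all 3 libraries. Peaks at C5ar1 extend from before its start to beyond its end, with gaps, and cover 69.4%, 78.7% and 97.6% of its body (Active Motif, replicate 1, replicate 2).

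Of the receptors for C3a and C5a, the latter had the larger covered length in each library. C3ar1 (chr6:122847138-122856161) was marked inside the gene rather than at its start. The Active Motif library had no peak within 1 kb of the TSS but a peak of 702 bp with its summit 1.24 kb into the gene, in an intron, and a fold of 12.4. Replicate 1 had its strongest peak at the same place (1.26 kb, fold 8.46) and a weak peak of 151 bp at 0.702 kb (fold 4.18, −log10 q 4.5), which alone put C3ar1 among the genes with a promoter peak, at percentile 3.33. Replicate 2 had 1 peak of 2665 bp with a fold of 30.7 and its summit 1.55 kb into the gene, which reached the promoter window by its edge and stood at percentile 58. All 3 libraries therefore had a peak in the first 2 kb of the gene, and the promoter calls at C3ar1 depended on where its edges fell.

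Around the intronic summit of replicate 1 the 200 bases (chr6:122854800-122854999) held a STAT match (TTCNNNGAA) and a RUNX match in capitals, motifs in 6.74% and 15.5% of all summit windows.
C3ar1 summit: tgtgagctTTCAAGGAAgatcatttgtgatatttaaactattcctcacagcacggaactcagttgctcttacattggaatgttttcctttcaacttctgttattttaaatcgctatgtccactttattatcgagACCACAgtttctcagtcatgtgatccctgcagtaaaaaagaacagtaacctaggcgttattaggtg

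Further from C3ar1, a peak 6.53 to 6.69 kb upstream was found in all libraries with folds of 6.82, 6.15 and 14. The strongest flank peak touched no promoter. It lay 45.1 to 45.5 kb beyond the 5′ end in the direction of transcription, with folds of 25.6, 47.7 and 44.5, higher than any peak at C3ar1 itself in the same library, and 8.87 to 9.29 kb from the nearest TSS, that of the forkhead gene Foxj2. Promoter sites of Foxj2 (strongest folds 8.52, 15.8 and 34.2) and of the endocytosis gene Necap1 (19.2, 38.1 and 35.1) were also marked in every library. Peaks covered 7.74, 13.2 and 18.1 kb of the C3ar1 window, at percentiles 88.2, 88.6 and 89.6 of all genes.

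C5ar1, the C5a receptor, had the highest promoter fold, the lowest promoter q-value and the longest covered stretch of the members in each library. It lies at chr7:16246743-16259540 with 2 TSS. The strongest promoter peak had a fold of 23.2 in the Active Motif library and of 53.8 and 53.7 in replicates 1 and 2, with −log10 q of 74.3, 209 and 175, at percentiles 92.7, 94.4 and 98.6 of marked genes. The folds were above the median of marked genes in each library (11.1, 19.2 and 26.9). The summits fell close together, 1.12, 1.2 and 1.23 kb into the gene, in an intron, and thus 921, 1002 and 1025 bp from the nearest TSS. The peak was 3257 bp wide with the Active Motif antibody, 6686 bp in replicate 1 and 8072 bp in replicate 2.

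The mark ran over most of the gene. Peaks covered 69.4% of the C5ar1 body in the Active Motif library, where it was split among 13 peaks, 78.7% in replicate 1 (7 peaks) and 97.6% in replicate 2 (3 peaks). Within 5 kb of a TSS, 4.82, 6.35 and 8.09 kb were covered, at percentiles 95.5, 96.5 and 97.8 of the genes with any covered base there, for which the medians were 1.23, 1.68 and 1.94 kb. A shared region of 8.07 kb (chr7:16253422-16261493) held the start and another of 13.4 kb (chr7:16238916-16252290) held the 3′ part and the neighbouring gene C5ar2, which encodes the other C5a receptor. They stood at percentiles 98 and 99.4 of width among the 29277 shared regions, whose median was 1380 bp, and of the 35 shared regions in the windows of the members they were the only 2 above 5 kb. Over the gene and its flanks, 21.3, 26.4 and 33.9 kb were covered, against medians of 1.44, 2.87 and 3.72 kb over all genes, which put C5ar1 at percentiles 98.8, 97.8 and 98.

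The 200 bases around the C5ar1 summit in replicate 1 (chr7:16258236-16258435), where the fold was the highest of any member, held none of the 13 motifs, unlike the bases before the RefSeq start shown above.
C5ar1 summit: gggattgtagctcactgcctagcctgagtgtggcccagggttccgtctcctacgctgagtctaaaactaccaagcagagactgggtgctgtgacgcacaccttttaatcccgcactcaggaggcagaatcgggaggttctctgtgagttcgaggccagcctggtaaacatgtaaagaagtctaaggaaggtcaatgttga

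In the flanks of C5ar1 the strongest peak of the Active Motif library (fold 21.7) and of replicate 2 (41) lay 35.8 kb upstream at no promoter, 8.52 and 8.55 kb from the TSS of Ccdc9, and this site had a fold of 29.6 in replicate 1. In replicate 1 the strongest was at the promoter of Ccdc9, which encodes a coiled-coil protein, with a fold of 38.4, where the other two libraries had 17 and 38.6. Promoters of Dhx34 and of Bbc3, the gene of the apoptosis protein PUMA, were marked in all libraries with folds of 10.9, 17.3 and 30 and of 7.25, 18.7 and 12. Inafm1 had promoter peaks in the Cell Signaling replicates alone (6.53 and 6.91).

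**Figure D3:**
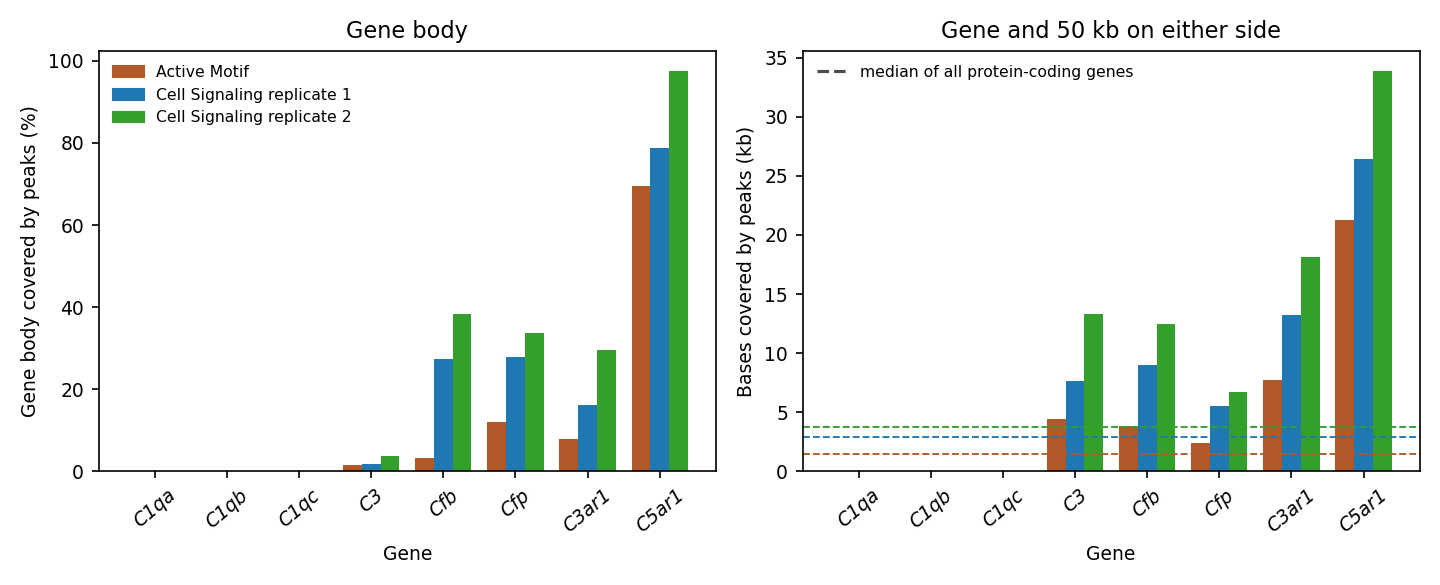
Left, share of each complement gene's body covered by H3K27ac peaks (%); right, bases covered in the gene and 50 kb on either side (kb), with the median over all protein-coding genes in each library as dashed lines. Bars are single libraries, so there are no error bars; C5ar1 has 69.4% to 97.6% of its body covered, and the C1q genes are at 0.

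Over all 8 windows there were 62 peaks with the Active Motif antibody, 67 in replicate 1 and 52 in replicate 2, all of them at 5 members. At promoters lay 6, 8 and 5 of them, in gene bodies 15, 11 and 3, and in the flanks 41, 48 and 44. C5ar1 held 27, 20 and 19 of these peaks, which were fewest and widest in replicate 2. Of the 67 peaks of replicate 1, 63 (94%) overlapped a peak of replicate 2, against 82.1% of all its peaks, and of the 52 peaks of replicate 2, 36 (69.2%) overlapped one of replicate 1, against 61.9%. Those without a partner had a median fold of 4.4 and a highest of 4.61 in replicate 1, and a median of 3.96 and a highest of 10.2 in replicate 2. All 62 Active Motif peaks overlapped a peak of replicate 2, against 99.5% of all Active Motif peaks. A peak of replicate 1 was overlapped by 60 (96.8%), against 96.6%. An Active Motif peak was overlapped by 30 of 67 peaks of replicate 1 (44.8%), against 38.3% of all its peaks. For replicate 2 it was 27 of 52 (51.9%), against 37.6%.

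Among 40 other complement genes matched in the annotation, receptors were marked most often and the lectin pathway not at all. A promoter peak was found at 7 of the 40 with the Active Motif antibody and at 10 in each replicate, and 30 of the 40 had none in any library, beside 49.8% of all genes. Of the 8 receptor genes, 5 were marked with the Active Motif antibody and 6 in each replicate. The shares of all protein-coding genes with a promoter peak were 40.9%, 47.9% and 48.9% (Active Motif, replicate 1, replicate 2). Whether the 8 receptors or the 40 genes differ from these shares was not tested. The integrin chains Itgax and Itgb2, which together form complement receptor 4, had folds of 29, 56.1 and 50 and of 21.2, 44.6 and 34.3, Itgax being an AM marker as well. Itgam, the alpha chain of complement receptor 3, had weak peaks in the replicates alone (8.46 and 7.99), which also touched the promoter of the predicted gene Gm49368. C5ar2 had folds of 9.8, 20.1 and 35.3, from peaks of the same domain as C5ar1. The peak of replicate 1 had its summit 2.05 kb from the C5ar2 TSS, and that of replicate 2 had it 7.06 kb away, in a C5ar1 intron. Their folds are therefore not those of the C5ar2 promoter itself.

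Cr1l, which encodes the membrane regulator Crry and was kept with the receptors, had folds of 12.7, 48 and 45.8, and Cd93, a lectin-like receptor once proposed to bind C1q, had folds of 4.1, 9.99 and 10.4. Vsig4, the macrophage receptor for C3b known as CRIg, and Cr2 had no promoter peak, although the Vsig4 window held 6, 17 and 16 peaks. Of the 6 matched classical pathway genes, C1ra, a protease of the C1 complex, was marked in all libraries (5.54, 6.53 and 12.5) and C2 in both replicates. Of 7 terminal pathway genes, C8g alone was marked (10.3, 22.7 and 25.1), by peaks that also touched the promoter of Fbxw5. The 8 lectin pathway genes and Cfd, the factor D protease, had no promoter peak. Of 10 regulators, Cd46 alone was marked, in both replicates (6.15 and 9.71).

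**Figure D4:**
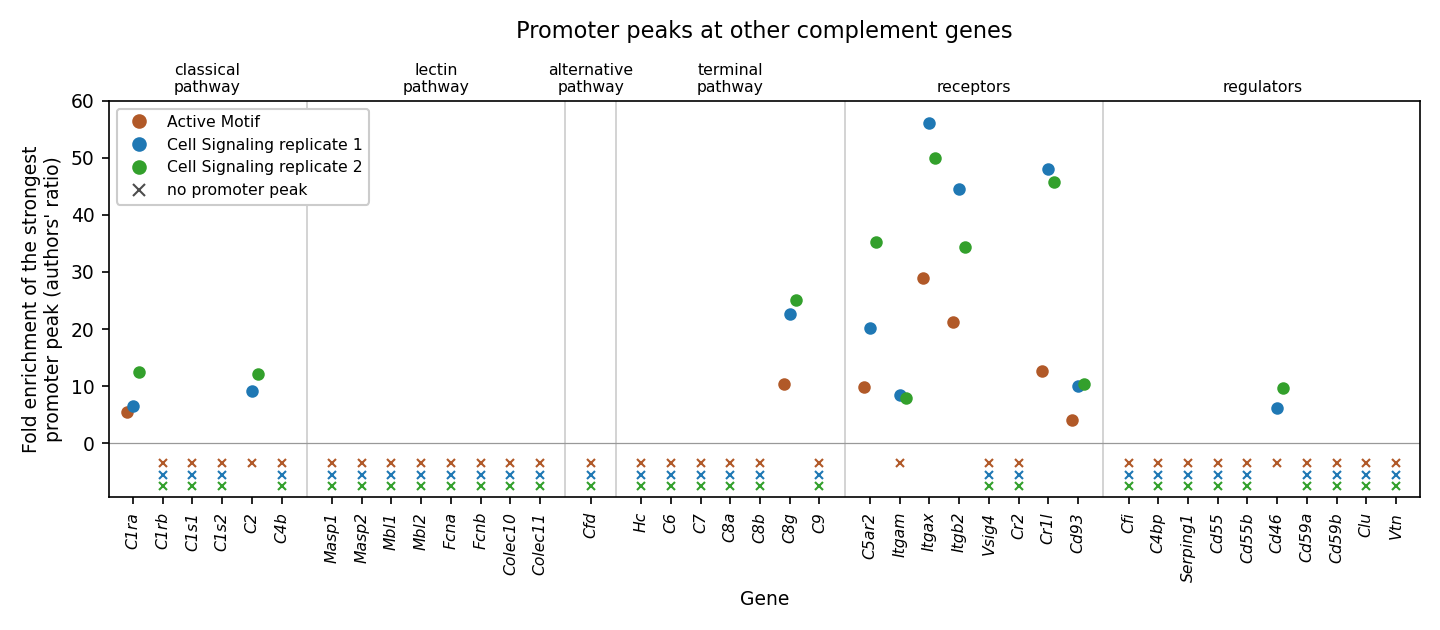
Fold enrichment of the strongest promoter peak (vertical axis, the authors' ratio) at 40 other complement genes, grouped by pathway, in the Active Motif library (brown) and Cell Signaling replicates 1 (blue) and 2 (green); crosses mark genes without a promoter peak. Folds above 40 occur at Itgax, Itgb2 and Cr1l, all in the receptor group, and the lectin pathway has crosses only. At C5ar2 the peaks of replicates 1 and 2 have their summits over 1 kb from its TSS.

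Some marker genes of other cells were marked in exactly 1 library. Scgb1a1, Scgb3a1, Scgb3a2, Muc5b, Cyp2f2 and Bpifa1 of the airway list and Sftpd, Nkx2-1, Hopx and Aqp5 of the alveolar epithelial list had a promoter peak in replicate 1 alone, with folds of 4.23 to 8.07, and Pdpn, Cx3cr1 and Ccr2 in replicate 2 alone (10.2, 5.42 and 6.71).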

How the data were processed

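H3K27ac was profiled by HT-ChIPmentation in AMs from 9-week-old WT mice. Per the study's methods, the authors trimmed reads with Cutadapt, aligned them to mm10 with Bowtie2, marked duplicates with Picard, removed those and poorly mapped reads with samtools and called peaks with MACS3 against input at a q-value of 0.05. The submitters' processing notes also name CASAVA and bcl2fastq, with version 2.20.0.422 for both Cell Signaling replicates. The deposited lists, 1 per library without pooling, give for each peak the fold enrichment (a ratio), the p-value and the q-value as −log10, a score that the authors' caller derived from the q-value, and the summit offset. The score and p-value were not used further. The smallest −log10 q was between 1.31 and 1.33 in the 3 libraries. Read depth was not used here, so an absent peak means only that none was called.

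Peaks on 19 autosomes and X were compared with GENCODE vM21 basic protein-coding genes (21755 genes, 41249 TSS) with Python 3.11.15, pandas 2.3.3 and numpy 2.4.6. Coordinates are counted from 1 on mm10, and sequence came from GRCm38.p6, the same assembly, in which 2000 of 2000 sampled RefSeq promoters were identical and 0 peaks ran past a chromosome end. Overlap needed 1 bp. A percentile is the share of genes or regions at or below the value within a library. Overlap and motif searches were tested on simulated data. The members and lists were chosen with earlier results of these data known. Of 41 other complement genes used, 40 matched, and 1 more gene of the list is not reported here. Named were the members, listed complement genes with a promoter peak, genes within 1 kb of the strongest flank peak and marker genes of other cells marked in exactly 1 library. Epha8, Ephb2, Cdc42, Kdm1a, Zbtb40, Elk1, Syn1, Nelfe, Skiv2l, Ehmt2, Zbtb12, Foxj2, Necap1, Dhx34, Bbc3, Inafm1, Fbxw5, Gm20547, Gm49368, Vsig4, Cr2 and Cfd were named after their values were seen. Alternatives changed the promoter window, TSS, flank, q-value, peak number and overlap rule.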

Additional observations from a re-analysis of the deposited data

How the results depend on the processing

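No paired analysis was possible because no result comes from a test. Of the alternative values, 96 stayed within 1.5 times the reported value and 11 did not. With peaks at a q-value of 1e-05 or less, 3 members in place of 5 had a gene body peak in the Active Motif library. When the summit had to lie in the promoter window, 3 members had a promoter peak in replicate 2 and 3 in both Cell Signaling replicates, since the summits at C3ar1 and C5ar1 lay over 1 kb from a TSS. Members with a promoter peak in all 3 libraries then fell from 3 to 2, a change of exactly 1.5 times that counts among the 96. With flanks of 20 kb the windows held 38, 42 and 26 peaks (Active Motif, replicate 1, replicate 2), and with 100 kb 108 in replicate 1 and 82 in replicate 2, with 0 members lacking a peak because of the peak nearest Ephb2 in replicate 1. Requiring 50% of both peaks to overlap left 29.9% of replicate 1 and 40.4% of replicate 2 peaks with a partner. Leaving out replicate 1 or replicate 2 left 5 members with a promoter peak, and 10 of the other complement genes. These values repeat the counts of the remaining replicate and could not fall, so they are no measure of robustness, although they count among the 96. The TSS of every basic transcript was tried after seeing the data. Without read counts, weak peaks such as that at C3ar1 cannot be ranked between libraries.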
